A study of Mus musculus with 8 samples.

Results

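The TAM receptors and their ligands were followed across sorted mouse mammary cells: the receptor genes Axl, Tyro3 and Mertk and the ligand genes Gas6 and Pros1. All 5 genes were found by symbol in the platform annotation, each with 1 probe, so they account for 5 of 25697 probes on the array. Sorted cells came from mammary glands of nulliparous mice aged 16 weeks, of strain B6.129P2-AXLtm1Dgen, that carried a lacZ insertion in Axl. Glands were AXL +/LacZ (heterozygous) or AXL LacZ/LacZ (homozygous), so every group carried at least 1 LacZ allele, and wild-type glands were not analysed here. Cells were stained with FDG, a substrate that becomes fluorescent when the lacZ product cleaves it, and the brightest 5% (FDG-high) and the dimmest 65% (FDG-low) of viable cells without CD45, CD31 or CD11b on their surface were collected. Each of the 4 groups had 2 arrays, with glands of several animals of the same genotype combined in every sample. Because the reporter reads the Axl locus, the gates were set on the promoter activity of a member of the family, and in homozygous cells reporter fluorescence stands in for a transcript that the allele disrupts.

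TAM receptors are receptor tyrosine kinases of the cell surface that bind phosphatidylserine on dying cells through bridging ligands. GAS6 binds AXL, TYRO3 and MERTK, and protein S, the product of Pros1 and better known as an anticoagulant cofactor, binds TYRO3 and MERTK. Both ligands need carboxylation that depends on vitamin K to bind phosphatidylserine. In tissues the family drives the clearance of apoptotic cells and dampens innate immune signals, and in the mammary gland MERTK is known for clearance of dying cells after weaning.

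The promoters of 3 members are shown: Axl because it carries the reporter, Pros1 because it was the other member called between genotypes in FDG-low cells, and Mertk because it lay nearest to the threshold there. Each sequence holds 250 bases before and 50 after a gene start, from RefSeq, build GRCm38.p6. All 5 members matched this table. Capitals mark matches, on both strands, to the GC box GGGCGG, the AP-1 motif TGANTCA and the TEAD motif GGAATG, which were chosen after the sequences had been seen.
Axl (chr7:25788684-25788983, minus strand): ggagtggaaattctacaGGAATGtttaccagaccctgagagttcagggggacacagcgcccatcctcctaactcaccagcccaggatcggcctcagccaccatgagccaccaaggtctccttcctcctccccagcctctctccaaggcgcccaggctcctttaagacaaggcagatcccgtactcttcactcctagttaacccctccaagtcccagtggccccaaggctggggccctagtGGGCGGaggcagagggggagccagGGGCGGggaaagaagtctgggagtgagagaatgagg
Pros1 (chr16:62854057-62854356, plus strand): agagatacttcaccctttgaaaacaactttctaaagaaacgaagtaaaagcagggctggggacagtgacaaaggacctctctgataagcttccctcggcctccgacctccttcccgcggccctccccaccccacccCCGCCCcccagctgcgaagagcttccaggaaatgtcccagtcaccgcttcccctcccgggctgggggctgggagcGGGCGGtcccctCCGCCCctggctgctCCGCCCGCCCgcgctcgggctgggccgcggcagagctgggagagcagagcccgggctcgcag
Mertk (chr2:128698665-128698964, plus strand): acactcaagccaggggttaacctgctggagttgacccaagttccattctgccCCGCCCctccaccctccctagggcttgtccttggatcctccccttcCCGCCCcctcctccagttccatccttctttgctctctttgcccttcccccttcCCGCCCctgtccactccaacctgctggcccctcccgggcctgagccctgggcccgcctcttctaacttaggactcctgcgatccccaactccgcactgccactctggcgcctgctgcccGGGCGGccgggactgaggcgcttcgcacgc
The Axl window held 2 GC boxes and 1 TEAD match, the Pros1 window 5 GC boxes, of which the last 2 overlap, and the Mertk window 4 GC boxes. No AP-1 match lay in any of the 5 windows. Among 32851 promoters of the same length, 35.7% held a GC box, 14.7% the TEAD motif and 7.81% the AP-1 motif. Axl had 6 CpG dinucleotides in its window, the fewest of the 5 members, against 31 for Tyro3, 21 for Pros1, 17 for Gas6 and 14 for Mertk.

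Levels are normalized log2 intensities, and they are compared between groups for the same probe, never between probes. The background level of an array was the 95th percentile of its probes for receptors of odorants, pheromones and trace amines, and lay between 6.09 and 6.20. Median deposited intensities were 115.7 to 126.7 units, and 48.1% to 55.5% of the probes on an array exceeded background. Of the epithelial markers of the labelled tissue, Krt8, Krt14 and Acta2 were above background on 8 of 8 arrays. So were the fibroblast genes Pdgfra and Col1a1, the pericyte gene Rgs5 and, near background, Pecam1, the gene for CD31. Ptprc (CD45), Itgam (CD11b) and Adipoq were below background on all 8 arrays. Other markers of such cells were detected, as 2 of 9 myeloid and 2 of 6 adipocyte markers measured were above background on at least 2 arrays. The labels do not say whether both samples of a group were pooled from different animals, so every p-value reflects only how far these samples varied, and that variation may be technical. The 2 arrays of a group correlated at 0.963 to 0.980 across genes, and 0 pairs of arrays were identical.

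**Figure D1:**
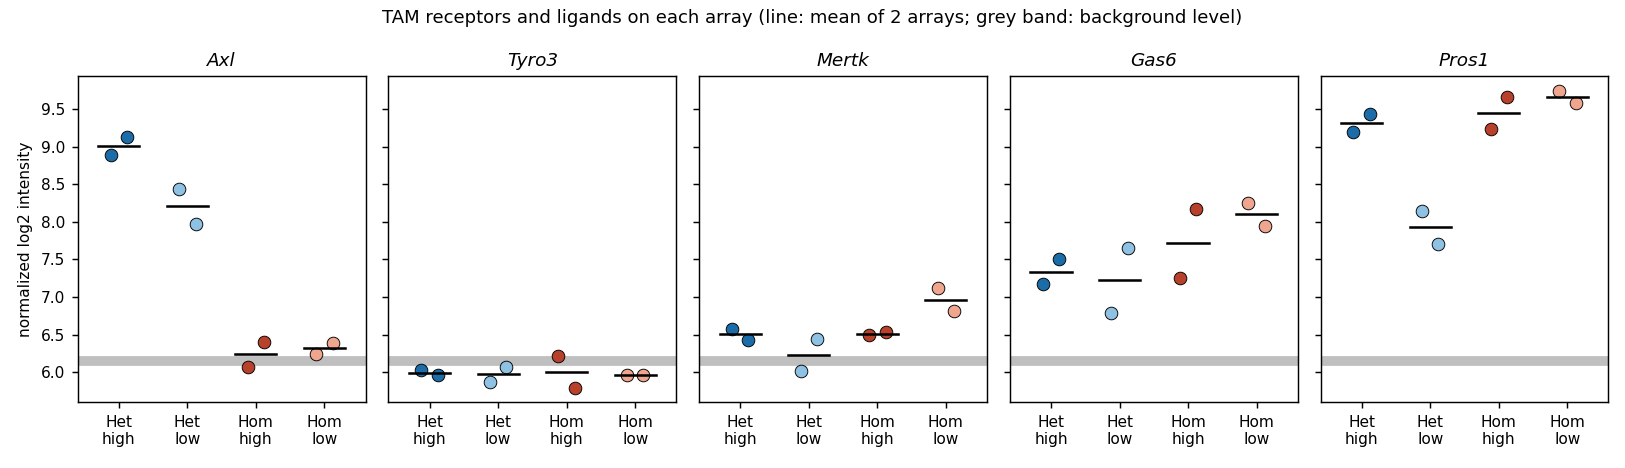
Normalized log2 intensity of each TAM gene on each of the 8 arrays, by genotype (Het, Hom) and FDG gate (high, low). Points are arrays, black lines are means of 2 arrays, and the grey band spans the background level of the arrays. Axl lies near background in both homozygous groups, Tyro3 at background in all groups, and Pros1 is lowest in heterozygous FDG-low cells.

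Axl, on chromosome 7, encodes the receptor that gave the reporter its locus, and it is described first because it checks the genotype labels. Its probe (ILMN_2651715) read 497.9 and 627.1 intensity units in heterozygous FDG-high cells and 407.1 and 269.3 units in heterozygous FDG-low cells. With both alleles disrupted it read 119.5 and 143.4 units in the FDG-high gate and 127.3 and 133.8 units in the FDG-low gate. The 4 heterozygous arrays were thus all above the 4 homozygous arrays, in the direction of the genotype labels. On the log2 scale the levels were 9.003 ± 0.17 and 8.21 ± 0.33 in heterozygous FDG-high and FDG-low cells, and 6.24 ± 0.23 and 6.32 ± 0.11 in the homozygous gates (SD, n = 2 arrays each). In homozygous FDG-high cells 1 of 2 arrays was above background, and in homozygous FDG-low cells both were, by a small margin. The position of the probe with respect to the lacZ cassette was not known, so how far it checks the disruption cannot be said.

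Tyro3, on chromosome 2, encodes a receptor best known from neurons and from dampening of immune responses. Its probe (ILMN_2449917) read between 108.6 and 127.6 units, and 1 of 8 arrays, the first homozygous FDG-high array, was above background at 6.22. Group means ran from 5.96 to 6.01, so no level and no fold is given for this gene. A difference in Tyro3 was not detectable at this signal.

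Mertk, also on chromosome 2, encodes the receptor known for phagocytosis of apoptotic cells by macrophages and epithelium. Its probe (ILMN_2714638) was dim: 141.5 and 135.7 units in heterozygous FDG-high cells, 117.0 and 128.6 units in heterozygous FDG-low cells, 145.2 and 153.8 units in homozygous FDG-high cells, and 185.7 and 158.5 units in homozygous FDG-low cells. It was above background on 7 of 8 arrays, the exception being the first heterozygous FDG-low array. Homozygous FDG-low cells, at 6.97 ± 0.22 on the log2 scale, stood above every other array. The heterozygous FDG-low mean of 6.23 ± 0.30 was the lowest, with heterozygous and homozygous FDG-high cells between at 6.50 ± 0.10 and 6.51 ± 0.03 (SD, n = 2 each).

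Gas6, on chromosome 8, encodes the ligand shared by the 3 receptors. Its probe (ILMN_2686327) read 185.6 and 236.2 units in heterozygous FDG-high cells, 165.6 and 227.6 units in heterozygous FDG-low cells, 212.6 and 398.2 units in homozygous FDG-high cells, and 344.1 and 276.8 units in homozygous FDG-low cells. It was above background on 8 of 8 arrays. The means rose in the order heterozygous FDG-low (7.22 ± 0.61), heterozygous FDG-high (7.34 ± 0.24), homozygous FDG-high (7.71 ± 0.65) and homozygous FDG-low (8.10 ± 0.22; SD, n = 2 each). Neighbours in this order overlapped, and the arrays of heterozygous FDG-low and of homozygous FDG-high cells were the most spread.

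Pros1, on chromosome 16, encodes protein S. Its probe (ILMN_1235499) read 601.9 and 754.4 units in heterozygous FDG-high cells, 343.3 and 234.0 units in heterozygous FDG-low cells, 695.8 and 979.6 units in homozygous FDG-high cells, and 898.3 and 756.8 units in homozygous FDG-low cells. Heterozygous FDG-low cells stood apart below the other 3 groups, of which homozygous FDG-high cells overlapped with both others. On the log2 scale the means were 7.93 ± 0.31 in those cells, then 9.31 ± 0.17 in heterozygous FDG-high, 9.44 ± 0.30 in homozygous FDG-high and 9.66 ± 0.11 in homozygous FDG-low cells (SD, n = 2 each). Mertk, Gas6 and Pros1 therefore had the same order of group means, with homozygous FDG-low highest and heterozygous FDG-low lowest. For none of them did homozygous and heterozygous FDG-high cells separate.

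**Figure D2:**
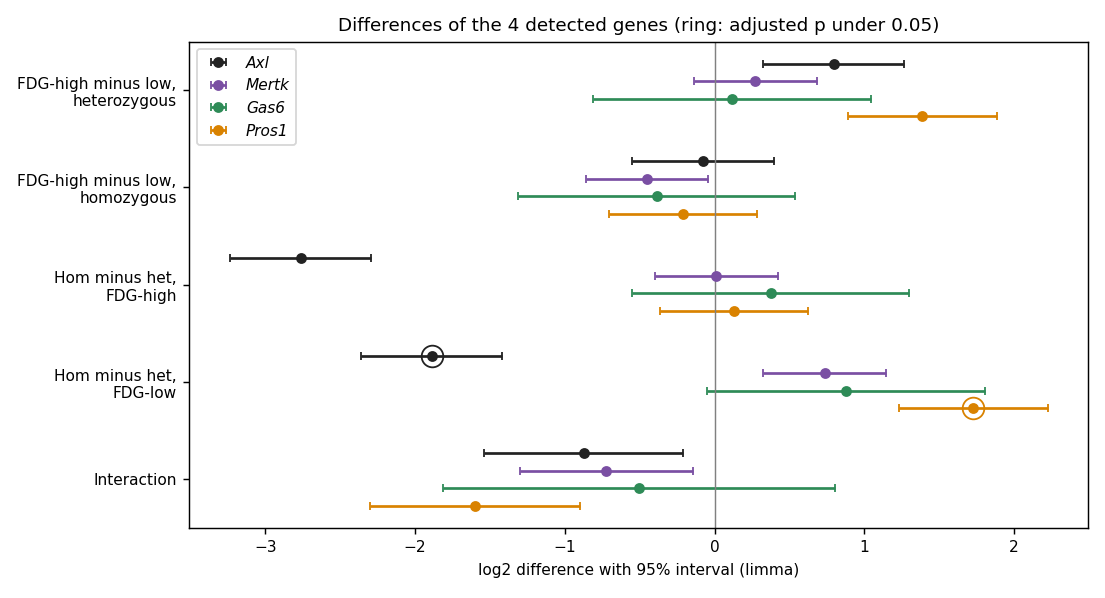
Log2 differences with 95% intervals from limma for the 4 members above background, in the 4 pairwise comparisons and their interaction. Rings mark an adjusted p under 0.05, which Axl (-1.89) and Pros1 (1.73) reached in FDG-low cells between genotypes.

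The genotype comparison in FDG-low cells held the members' only calls. Between homozygous and heterozygous FDG-low cells Axl was lower and Pros1 was higher, the receptor falling by 1.89 ± 0.20 (3.71-fold) and the ligand rising by 1.73 ± 0.21 (3.31-fold; log2 difference ± SE, n = 2 arrays per group). Adjusted p was 0.00658 for Axl and 0.00885 for Pros1 (limma, moderated two-sided test, Benjamini-Hochberg over 16593 genes), and for each gene the groups did not overlap. The size for Axl depended on the treatment of background, from 2.48-fold with log2(value + 16) and no correction to 5.72-fold with an offset of 16, with a call in both. These 2 of 5 members stand against 8.42% of all genes called in this comparison, and 3 of 5, with Mertk, had an unadjusted p under 0.05 against 22.4% of all genes. Axl is in both counts, and its fall was in part given by the design, because the allele disrupts it. Of the other members only Pros1 was called. Of all genes, 1.71% had a larger absolute difference than Axl and 2.27% a larger one than Pros1. Mertk was higher by 0.74 ± 0.17 (1.67-fold) with no overlap and missed the threshold at an adjusted p of 0.0504. Gas6 differed by 0.88 ± 0.38 in the same direction with no overlap (adjusted p = 0.249), and its 95% interval of -0.05 to 1.803 held 0. Neither call held when either homozygous FDG-low array was left out. Axl then differed by -1.81 (adjusted p = 0.0663, replicate 1 left out) and -1.98 (adjusted p = 0.0516, replicate 2 left out). Pros1 differed by 1.64 (adjusted p = 0.0740) and 1.81 (adjusted p = 0.0617) in the same fits.

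Markers of other cell types moved with this comparison. All 12 fibroblast markers had a positive difference between homozygous and heterozygous FDG-low cells, with a median of 1.70, and 5 of them passed. Of 11 epithelial markers measured, 0 had a positive difference, the median was -2.19 and 9 passed as lower. The median over all genes was 0.00. Summed normalized intensity of the fibroblast markers was 2706 to 7174 units in heterozygous and 14621 to 14950 units in homozygous FDG-low cells, and that of the epithelial markers was 10579 to 11686 against 2899 to 2946 units. The luminal keratin gene Krt8 fell by 2.51 ± 0.29 (limma, adjusted p = 0.00848) and the contractile gene Acta2 by 1.62 ± 0.15 (adjusted p = 0.00539). Of 9 basal markers measured, 1 had a positive difference, the median was -0.92 and only Acta2 passed as lower. The basal keratin gene Krt14 differed by -0.92 ± 0.47 with overlap and did not pass (adjusted p = 0.337). Pdgfra, a receptor gene that marks fibroblasts, differed by 2.48 ± 0.62 and did not pass (adjusted p = 0.0637). Of 6 adipocyte markers, 5 had a positive difference, the median was 0.117 and 0 passed. Their sum was 1006 to 1743 units in heterozygous and 2728 to 3237 units in homozygous FDG-low cells. In sorted populations such as these, fewer cells of a type and less RNA per cell cannot be told apart, and the part of cell makeup in the rise of Pros1 was not tested. Heterozygous FDG-low cells were the lowest group both for Pros1 and for the summed fibroblast markers.

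**Figure D3:**
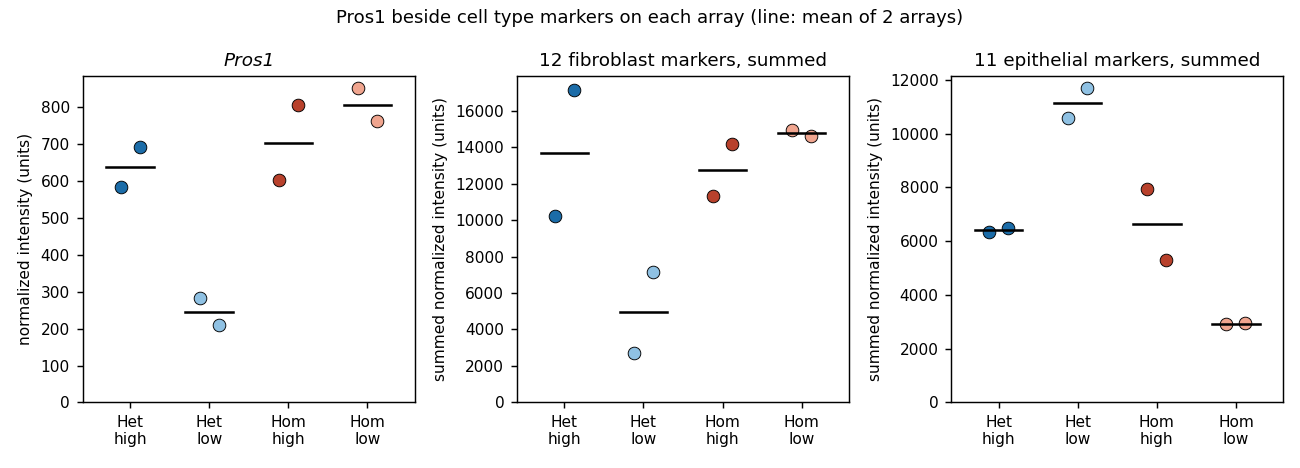
Normalized intensity of Pros1, of 12 fibroblast markers summed and of 11 epithelial markers summed, in linear units from 0, on each of the 8 arrays. Points are arrays and lines are means of 2. Heterozygous FDG-low cells are lowest for Pros1 and for fibroblast markers and highest for epithelial markers.

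Between genotypes in FDG-high cells, the comparison for which the design text names a test, Axl stood alone among the members. It was lower in homozygous cells by 2.76 ± 0.20, or 6.79-fold, with no overlap of the groups and the smallest p of all genes (limma, unadjusted p = 4.79e-06, adjusted p = 0.0795). No gene had a larger absolute difference. The fold rests on a homozygous group in which 1 of 2 arrays was above background, and it ran from 4.08-fold (adjusted p = 0.246) with log2(value + 16) and no background correction to 11.6-fold (adjusted p = 0.0122) with an offset of 16. By limma 0 of 5 members passed, against 0% of all genes, and 1 member, Axl, had an unadjusted p under 0.05 where 3.85% of all genes did. Axl is the gene that the allele disrupts, so this count says nothing of the other members. The rank product, the test that the design text names, called 1 member, Axl (permutation p = 6.03e-07, the lowest value that 100 permutations allow; adjusted p = 9.09e-04), against 1.21% of all genes called and 0.651% called as lower. Its pairs of arrays share arrays, but the permutations treated the pairs as independent, so its p-values are too small.

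Gas6 had the next largest difference of the members in FDG-high cells, 0.37 ± 0.38 in favour of homozygous cells (limma, adjusted p = 1), with a 95% interval of -0.55 to 1.30. Pros1 differed by 0.13 ± 0.21 with an interval of -0.37 to 0.62, and Mertk by 0.01 ± 0.17 with an interval of -0.40 to 0.42. Marker sums of the FDG-high groups overlapped, with 10237 to 17153 units in heterozygous and 11294 to 14158 units in homozygous cells for fibroblast markers. For epithelial markers the range of 6339 to 6471 units lay inside that of 5315 to 7943 units.

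**Figure D4:**
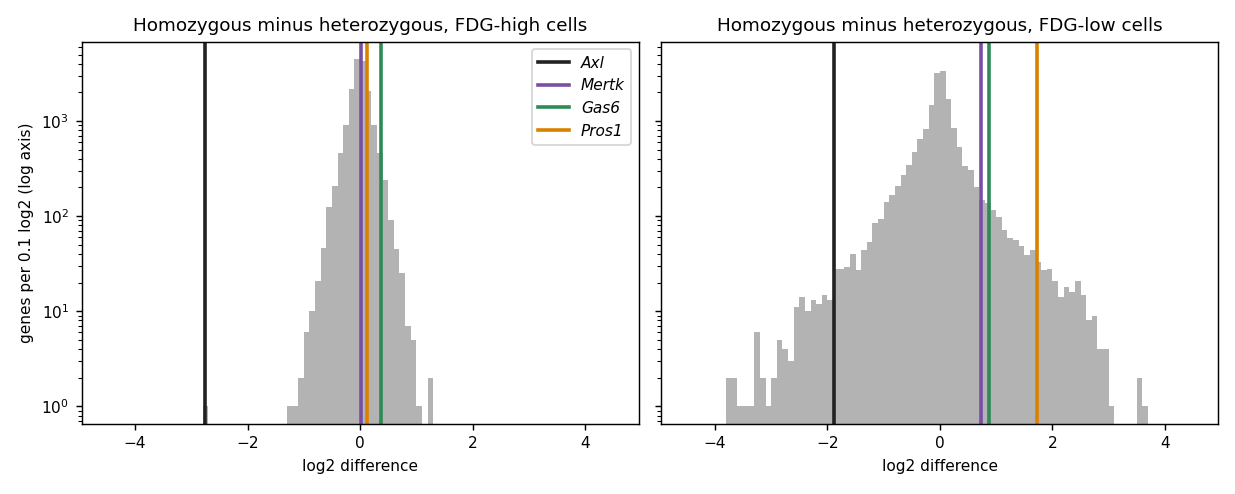
Distribution of the log2 differences of 16593 genes between homozygous and heterozygous cells in the FDG-high and the FDG-low gate, counted per 0.1 log2 on a log axis, with the 4 detected members as vertical lines. In FDG-high cells Axl at -2.76 lies outside all other genes, whereas in FDG-low cells the distribution is wider and Axl at -1.89 and Pros1 at 1.73 lie in its flanks.

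The gate comparison in heterozygous glands sets cells with high reporter activity at the Axl locus against cells with low activity. Both Axl and Pros1 had higher means in FDG-high cells with no overlap between the gates, but 0 of 5 members passed in limma, against 0.00603% of all genes. Pros1 differed by 1.39 ± 0.21, or 2.62-fold (adjusted p = 0.116), and Axl itself by 0.80 ± 0.20, or 1.74-fold (adjusted p = 0.243). Their 95% intervals, 0.893 to 1.884 and 0.326 to 1.268, overlapped, and the 2 differences were not tested against each other. The gate was set on fluorescence from the Axl locus, so the direction of Axl is in part given by the sort. At an unadjusted p under 0.05 these were 2 of 5 members, where 10.3% of all genes reached that level. Mertk differed by 0.27 ± 0.17 and Gas6 by 0.12 ± 0.38, and for both the gates overlapped. Fibroblast markers had a positive difference in 12 of 12 cases with a median of 1.53, and 0 of them passed. Their sum was 10237 to 17153 units in FDG-high against 2706 to 7174 units in FDG-low cells, and the part of this in the level of Pros1 was not tested. Basal markers had a positive difference in 9 of 9 cases with a median of 0.655. Epithelial markers had a positive difference in 1 of 11 with a median of -1.04, and 0 of either list passed.

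In homozygous glands Axl lay near background in both gates and differed by -0.08 ± 0.20 with overlap (limma, adjusted p = 0.930). Pros1 differed by -0.21 ± 0.21, with overlapping gates, and Gas6 by -0.39 ± 0.38, also with overlap. Mertk was the exception in that its gates did not overlap, with FDG-high cells lower by 0.45 ± 0.17, but it did not pass (adjusted p = 0.332). By limma 0 of 5 members passed, against 0.392% of all genes, and 1 of 5 had an unadjusted p under 0.05, against 12.9%. Basal markers had a median difference of 1.95 here, with 8 of 9 positive and 1 passing. Epithelial markers had a median of 1.31, with 11 of 11 positive and 2 passing. Fibroblast markers had a median of -0.34, and the part of all these markers in the Mertk value was not tested.

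The interaction term tested the dependence of the gate difference on genotype. All 4 detected members had a lower gate difference in homozygous than in heterozygous glands, while 8251 of 16593 genes had a positive interaction. The sign for Axl was in part preset. It lay near background in both homozygous gates, and its heterozygous gate difference is in part given by the sort. Pros1 had the largest interaction at -1.60 ± 0.29 (limma, adjusted p = 0.0722), followed by Axl at -0.87 ± 0.28 (adjusted p = 0.220), Mertk at -0.72 ± 0.24 (adjusted p = 0.237) and Gas6 at -0.50 ± 0.54 (adjusted p = 0.791). None of the 5 members passed, against 0.814% of all genes called, 0.579% as higher and 0.235% as lower, and 3 of 5 had an unadjusted p under 0.05, against 14.3%. When only genes above background on at least 2 arrays were tested, Pros1 passed (adjusted p = 0.0437). Fibroblast markers had a median interaction of -1.67, epithelial markers of 2.17 and basal markers of 0.89. The interaction and the comparisons above share arrays and are not independent of each other.

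Genes around the receptors were described through 5 lists, which held 67 genes on the array: downstream signalling, feedback and interferon receptor genes, the vitamin K cycle and other proteins with vitamin K-dependent carboxylation, receptor shedding, and clearance of cells that expose phosphatidylserine. In FDG-low cells between genotypes 9 of the 67 rose and 4 fell, against 3.79% and 4.63% of all genes. With homozygous FDG-low replicate 1 or 2 left out, 0 and 1 of the 67 passed, and with heterozygous FDG-low replicate 1 or 2 left out, 4 and 6. In the genotype comparison of FDG-high cells and in both gate comparisons 0 of the 67 passed in limma.

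Vitamin K genes bear on the ligands because carboxylation is needed for their binding to phosphatidylserine. Of 13 measured, 2 rose and 2 fell between genotypes in FDG-low cells, against 3.79% and 4.63% of all genes. Their median was 0.09. Vkorc1, the vitamin K epoxide reductase gene, rose by 1.18 ± 0.26 (limma, adjusted p = 0.0426), and its other probes gave 0.76 and 0.95. This call was lost without background correction (adjusted p = 0.0598) and with median centring (adjusted p = 0.0705). Mgp, which encodes matrix Gla protein, rose by 2.06 ± 0.42 (adjusted p = 0.0349). Prrg4 and Prrg2, genes of transmembrane Gla proteins, fell, by 1.35 ± 0.24 (adjusted p = 0.0260) and, below background in homozygous cells, at least 1.23-fold (adjusted p = 0.0445). The Prrg2 call held under 4 of 17 alternatives, with an adjusted p of up to 0.186. The carboxylase gene Ggcx differed by 0.42 ± 0.36 and the paralogous reductase gene Vkorc1l1 by 0.84 ± 0.20, and neither passed (adjusted p = 0.613 and 0.0521). Other probes gave 0.15 and 0.27 for Ggcx and 0.67 and 0.15 for Vkorc1l1. In the gate comparison of heterozygous glands Mgp differed by 1.41 ± 0.42, Bglap by -1.23 ± 0.29 and Vkorc1 by 0.87 ± 0.26. None of these passed there.

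Of 9 feedback genes 3 rose and 0 fell in FDG-low cells between genotypes, against 3.79% and 4.63% of all genes. Their median was 0.94. Twist2 and Twist1, genes of transcription factors known from mesenchymal cells and as repressors of cytokine genes, rose by 2.99 ± 0.35 (limma, adjusted p = 0.00885) and 1.92 ± 0.34 (adjusted p = 0.0253). With log2(value + 16) or an offset of 16 these rises came to 5.05-fold or 12.2-fold for Twist2 and 2.46-fold or 6.26-fold for Twist1, all called. In heterozygous FDG-low cells Twist1 was near the floor, at 5.996, below background, and 6.42. Jak1, a kinase gene of interferon receptor signalling, rose by 0.94 ± 0.19 (limma, adjusted p = 0.0361), a call lost with median centring (adjusted p = 0.0518). Socs3, a feedback inhibitor of cytokine signalling that TAM receptors are known to induce in dendritic cells, differed by 0.98 ± 0.32 (adjusted p = 0.124), and the interferon receptor gene Ifnar2 by 1.01 ± 0.30 (adjusted p = 0.0966), with 0.55 and 0.91 for its other probes. Neither passed. Twist1 and Twist2 are genes of the mesenchyme, and the fibroblast markers moved the same way, but the part of cell makeup in these rises was not tested.

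Downstream signalling genes had a median of 0.14 in the same comparison. Of these 1 of 15 passed, as lower, against 4.63% of all genes. It was the adaptor gene Nck2, which fell by 1.64 ± 0.23 (limma, adjusted p = 0.0130). Its levels were 10.99 and 10.77 in heterozygous and 9.10 and 9.38 in homozygous FDG-low cells. Pik3r1, which encodes the regulatory subunit of phosphoinositide 3-kinase, differed by 0.32 ± 0.18, with 0.15 and 0.82 for its other probes, and Src by -0.55 ± 0.29, with -0.0158 for its other probe, and neither passed. Of 5 shedding genes 1 passed, as higher, against 3.79% of all genes. This was Timp3, an inhibitor of the sheddases, which rose by 1.02 ± 0.18 (adjusted p = 0.0254), and its other probe gave 1.06. Adam17, a protease gene known for cleavage of MERTK, differed by -0.64 ± 0.15 (adjusted p = 0.0551), and Adam10, known for cleavage of AXL in mouse, by at least 1.24-fold in the same direction (adjusted p = 0.0949). These did not pass.

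Clearance genes showed both directions. Of 25 measured, 3 rose and 1 fell between genotypes in FDG-low cells, against 3.79% and 4.63% of all genes. Their median was 0.09. Abca1, a lipid transporter gene, rose by 1.71 ± 0.22 (limma, adjusted p = 0.0107). Lrp1, a scavenger and calreticulin receptor gene, rose by 1.60 ± 0.15 (adjusted p = 0.00520). Xkr8, whose product exposes phosphatidylserine on dying cells, rose by 0.92 ± 0.17 (adjusted p = 0.0293), a call lost with median centring (adjusted p = 0.0511). Its heterozygous FDG-low levels were near the floor, at 6.114, below background, and 6.173. With log2(value + 16) or an offset of 16 the rise of Xkr8 came to 1.46-fold or 2.71-fold, called in both. Mfge8, the milk fat globule protein that bridges phosphatidylserine to integrins, fell by 0.78 ± 0.16 (adjusted p = 0.0351), and its other probe gave -1.03. This call was lost with an offset of 16 (adjusted p = 0.0552) and with median centring (adjusted p = 0.0501). The galectin gene Lgals3, whose product has been described as a MERTK ligand, differed by -1.27 ± 0.32 and did not pass (adjusted p = 0.0630).

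**Figure D5:**
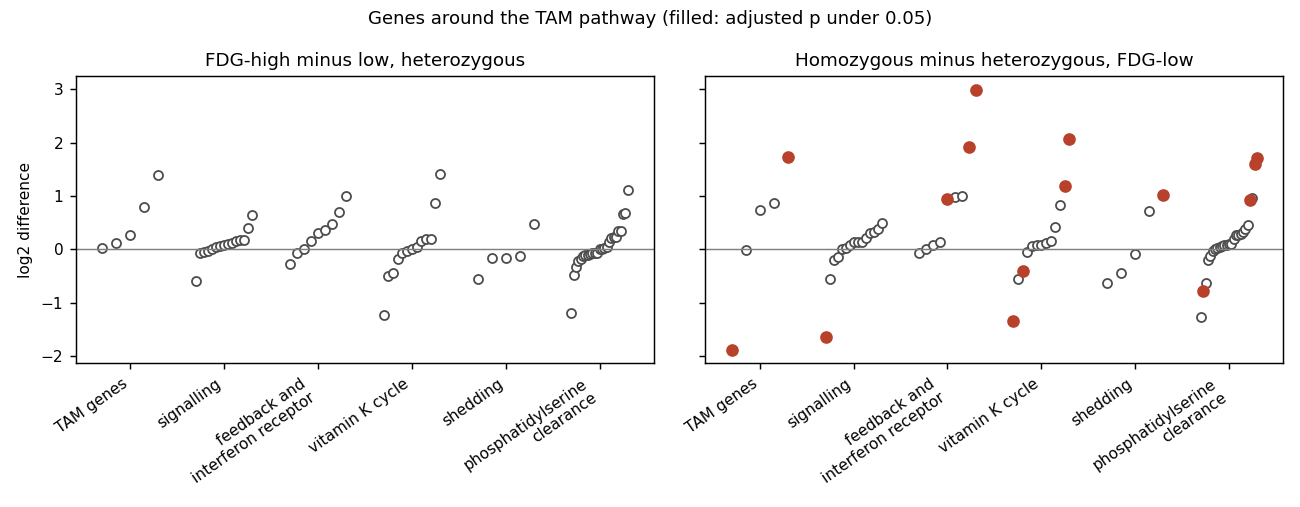
Log2 differences of the TAM genes and of 5 lists of pathway genes between the FDG gates of heterozygous glands and between genotypes in FDG-low cells. Each point is a gene, ordered by its difference within a list, and filled points have an adjusted p under 0.05. No point is filled in the gate comparison, and 15 are filled in FDG-low cells, 2 of them TAM genes.

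The genes whose level over the 8 arrays was most like that of each member were named by Pearson's r among 3035 genes with a range of at least 1 on the log2 scale. For Pros1 they were Prnp, the prion protein gene (r = 0.995), Smurf2 (0.987), Vcan, which encodes the matrix proteoglycan versican (0.981), Tmem150a (0.973) and Plpp3 (0.971). Another probe of Tmem150a gave 0.27 between genotypes in FDG-low cells, against 0.89 for the probe used. Prnp had means of 8.11 in heterozygous FDG-low cells and 9.55, 9.68 and 9.89 in heterozygous FDG-high, homozygous FDG-high and homozygous FDG-low cells, the same order as Pros1. For Mertk the nearest were Nav1 (0.962), the metallothionein gene Mt2 (0.959), Saraf (0.958), Srfbp1 (0.955) and Fndc3b (0.95). For Gas6 they were Rab7b (0.931), Vps29 (0.931), the apolipoprotein gene Apod (0.929), Ccpg1 (0.927) and Pknox2 (0.923). Other probes of Vps29 gave -0.337 and -0.423 between genotypes in FDG-high cells, against 0.14 for the probe used. For Pknox2, other probes above background gave 0.558 and 0.197 between genotypes in FDG-low cells, against 0.60.

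Axl was nearest to the calcium pump gene Atp2a3 (0.952), the mitochondrial ribosomal gene Mrps12 (0.948), Dyrk1b (0.912), Fbxl19 (0.908) and Ubac2 (0.902). These 5 separated the genotypes in both gates without overlap, which follows largely from their choice by likeness to Axl on the same arrays. Another probe of Atp2a3 that was above background gave 0.03 between genotypes in FDG-high cells, against -1.10 for the probe used. Of the 5 genes nearest to Axl, 3 lie on chromosome 7 with Axl, and 0 of 5 do for each of Mertk, Gas6 and Pros1. The share of the genes compared that lie on chromosome 7 was not counted, so these numbers are description only. In the GRCm38.p6 annotation 52 protein-coding genes lie between Axl and Dyrk1b, 75 between Axl and Mrps12 and 1268 between Axl and Fbxl19. These values of r describe 8 arrays that share their groups, and the levels of Axl split by genotype.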

How the data were processed

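Sorted mouse mammary cells were measured on bead arrays, with 8 arrays in 4 groups of 2 assigned from the sample titles, all on 1 chip per the labels' array positions. The table deposited by the authors holds intensities on a linear scale, judged from the values, although the design text speaks of log2 quantile normalized data, so the planned fallback for linear values was used. Bead summary and background treatment by the authors are unknown here. Intensities were background corrected (normexp, offset 50), quantile normalized and log2 transformed with limma 3.58.1 in R 4.3.3, so changes of dim genes are understated.

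Probes were named by the platform annotation (23978 with 1 symbol, 1719 with none). Of the named probes, 23962 matched the reference by gene identifier and 0 symbols changed. The brightest probe stood for each of 16593 genes. Background was the 95th percentile of 1326 probes for receptors of odorants, pheromones and trace amines. If a whole group was below background, "at least" marks a bound: the bright group's mean against a dim mean in which each array contributes either its lowest signal above background or the probe's signal, whichever is greater. A single model with a coefficient per group gave all contrasts (4 residual and 2.4 prior degrees of freedom), with two-sided moderated tests and Benjamini-Hochberg adjustment over all genes at 0.05. The fit was tested on simulated data. The rank product used 4 pairs of arrays, 100 permutations, p under 0.01 and at least 1.5-fold. Each array was in more than 1 pair, which the permutations did not take into account. With 2 arrays per group, their number limits the precision.

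Named genes were the 5 members, the 5 genes most correlated with each detected member, and list genes past the threshold or among the 3 largest differences in the heterozygous gate and FDG-high genotype comparisons. Members and lists were chosen with earlier results of these data known.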

Additional observations from a re-analysis of the deposited data

Results flagged for a closer look

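Lrp1, the scavenger receptor gene of the clearance list, was picked out because its gate difference depended on genotype, with an interaction of -1.59 ± 0.21 (limma, adjusted p = 0.0372). Its level was 9.73 and 9.83 in heterozygous FDG-high against 8.61 and 8.75 in heterozygous FDG-low cells, and 9.62 and 9.98 in homozygous FDG-high against 10.37 and 10.19 in homozygous FDG-low cells. FDG-high cells were thus higher in heterozygous and lower in homozygous glands, with no overlap in either. The call held under 6 of 16 alternatives, with an adjusted p between 0.0218 and 0.167, and the direction under all 16. Fibroblast markers had a median interaction of -1.67, and their part in this value was not tested.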

How the results depend on the processing

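Across 17 alternatives, of which 16 applied to the interaction, the 4 detected members kept their direction in 327 of 336 values. The 9 reversals came when an array was left out and concerned differences that had not passed. Over those fits the gate difference of Gas6 ran from -0.32 to 0.55 in heterozygous and from -0.84 to 0.073 in homozygous glands, and that of Axl in homozygous glands from -0.23 to 0.086. The FDG-high genotype difference ran from -0.058 to 0.082 for Mertk, from -0.081 to 0.83 for Gas6 and from -0.083 to 0.34 for Pros1. In FDG-high cells Axl passed with an offset of 16 (-3.54, adjusted p = 0.0122), among genes above background on at least 2 arrays (-2.76, adjusted p = 0.0144) and when the prior variance followed intensity (-2.76, adjusted p = 0.00415), so that the count of members was 1 in each. It did not pass in the other 14, among them no background correction (-2.16, adjusted p = 0.204), log2(value + 16) (-2.03, adjusted p = 0.246), median centring (-2.75, adjusted p = 0.260), the replicate block (adjusted p = 0.361) and the FDG-high arrays alone (adjusted p = 1). The member count of the interaction was 1, Pros1, among genes above background on at least 2 arrays. In FDG-low cells the count of members ran from 0 to 3 when an array was left out, 0 without either homozygous FDG-low array, and Axl from -2.14 to -1.66. Over all 17 alternatives Axl ran from -2.52 to -1.31 there and Pros1 from 1.49 to 1.96. Mertk joined the calls there in 5 alternatives (adjusted p down to 0.0352).

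With the replicate number as a block, Axl and Pros1 still passed in FDG-low cells (-1.89, adjusted p = 0.0110, and 1.73, adjusted p = 0.0143), the member counts were the same in every comparison, and 1494 genes passed in place of 1397. Replicate differences correlated at 0.40 between the heterozygous gates and 0.011 between the homozygous gates, and the labels state no pairing. Prrg2, Mfge8 and the Lrp1 interaction lost their calls under the block (adjusted p = 0.0625, 0.0506 and 0.0501). Of 17 alternatives, the FDG-low call held in 4 for Prrg2, 10 for Vkorc1 and for Mfge8, 12 for Jak1 and for Xkr8, 13 for Mgp, Twist1 and Timp3, 14 for Nck2, Prrg4 and Abca1, 15 for Twist2 and 16 for Lrp1. Over all alternatives the number of genes called ran from 0 to 6 in the heterozygous and 0 to 193 in the homozygous gate comparison, 0 to 329 in the interaction and 121 to 1676 in FDG-low cells between genotypes, against 1, 65, 135 and 1397. The median of all genes moved by less than 0.1 under each scaling. Nearness to background limits Tyro3, Mertk and homozygous Axl, and among list genes Prrg2, Adam10, and Twist1 and Xkr8 in heterozygous FDG-low cells.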
